A study of Mus musculus with 4 samples.

Results

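B cells are the antibody lineage of the immune system. In the 4 single-cell libraries described here, 914 of 23730 cells were taken as B cells. A cell counted as one if it held at least 1 UMI (a unique molecular identifier, 1 counted RNA molecule) of Cd79a and at least 1 UMI over Ms4a1, Ebf1 and Pax5. It also had to hold no UMI of Cd3d, Cd3e, Cd3g, Csf1r or Siglech and at most 1 UMI of Mzb1. These conditions were meant to set aside T cells, macrophages, plasmacytoid dendritic cells and plasma cells. All cells with at least 200 detected genes and at most 10% mitochondrial UMIs were considered. The members were therefore chosen by measured values, so those genes are described below and support nothing.

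In the study, KP lung tumour cells (p53-/-) were injected intravenously into B6 mice. The tumour cells were wild type (WT) or knocked out (KO) for Asf1a, a histone chaperone gene, and the mice were given isotype IgG or the anti-PD-1 antibody 29F.1A12. Per the labels, each mouse received 200 µg of antibody, 3 times a week for 1 week, and PD-1 is an inhibitory receptor best known on T cells. Whole perfused lungs were digested with collagenase D and DNase I, live cells were sorted by DAPI exclusion, and RNA was counted with the 10x 3′ v2 chemistry. Mice with WT tumour cells gave the libraries WT IgG and then WT anti-PD-1, and mice with KO tumour cells KO IgG and then KO anti-PD-1. Each of these 4 groups is 1 library, and values are given in this order throughout. Asf1a was deleted in the injected tumour cells alone, so the B cells of all groups came from the host mice and kept the gene. Its level in them was 29.0, 30.8, 37.5 and 37.4 CPM (UMIs scaled to 1000000 UMIs of the library's B cells), from 14, 20, 10 and 5 UMIs, and it is no check of the deletion. The sources used here do not say how many mice a library holds. With 1 library a group, the spread between mice was not measured, no test was possible, and every difference below is one between single libraries.

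As background, B cells carry an antibody on their surface as the B cell receptor, in which the Cd79a and Cd79b chains pass the signal of bound antigen into the cell. The transcription factors Ebf1 and Pax5 set and hold the lineage. Naive follicular B cells make the IgM and IgD heavy chains (Ighm, Ighd) from 1 gene locus and recirculate between blood and lymphoid tissue. After antigen contact they can switch to IgG or IgA, enter germinal centres or become plasma cells. In lung tumours, B cells are found in the tissue, in lymphoid aggregates and in the blood left in the vessels, which dissociated lung does not keep apart.

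Short stretches of sequence are shown for 3 genes that led the B cells over all other cells, because their promoters hold a motif of a B lineage factor. The octamer (ATGCAAAT, ATTTGCAT on the other strand) is the site of the Oct factors, and TCCC followed after 2 bases by GGGA is a palindromic core bound by Ebf1. Both strands were searched in the RefSeq promoters of build GRCm38.p6, which run from 250 bases before to 50 bases after the annotated start. None of the leading genes' promoters held both. The window of Vpreb3 is chr10:75948050-75948349 on the plus strand, that of Cd22 chr7:30878979-30879278 on the minus strand, and that of Chst3 chr10:60219211-60219510 on the minus strand. The lines give each gene's sense strand 5′ to 3′, with the octamer of Vpreb3 and the Ebf1 cores of Cd22 and Chst3 in capitals.
Vpreb3: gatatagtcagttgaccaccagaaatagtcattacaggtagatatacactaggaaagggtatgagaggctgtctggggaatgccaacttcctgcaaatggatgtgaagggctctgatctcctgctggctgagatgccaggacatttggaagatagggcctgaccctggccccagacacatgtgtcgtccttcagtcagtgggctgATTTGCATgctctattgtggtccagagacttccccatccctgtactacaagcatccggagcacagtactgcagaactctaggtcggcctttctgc
Cd22: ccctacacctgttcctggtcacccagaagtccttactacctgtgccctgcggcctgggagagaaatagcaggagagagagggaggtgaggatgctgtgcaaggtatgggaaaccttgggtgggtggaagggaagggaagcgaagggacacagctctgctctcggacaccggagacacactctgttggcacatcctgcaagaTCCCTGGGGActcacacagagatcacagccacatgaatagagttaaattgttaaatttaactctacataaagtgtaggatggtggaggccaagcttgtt
Chst3: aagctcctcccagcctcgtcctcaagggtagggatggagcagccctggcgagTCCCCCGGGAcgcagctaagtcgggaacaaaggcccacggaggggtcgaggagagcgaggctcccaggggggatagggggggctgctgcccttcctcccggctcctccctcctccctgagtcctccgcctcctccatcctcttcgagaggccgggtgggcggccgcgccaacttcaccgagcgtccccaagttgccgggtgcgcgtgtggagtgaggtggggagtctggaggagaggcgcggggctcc
The octamer of Vpreb3 begins 45 bases before its start, and the Ebf1 cores of Cd22 and Chst3 lie 49 and 198 bases before theirs. Of the 40 leading genes, 31 had a RefSeq promoter; 1 (3.23%) held the octamer and 2 (6.45%) the Ebf1 core. Over all 27025 promoters of this length the shares were 1.75% (474) and 0.914% (247). Over the 1947 matched promoters of the genes measured in B cells they were 1.69% (33) and 1.18% (23). With 1 or 2 promoters among the leading genes these shares are a description, and a match is not a bound site.

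The label was checked on the 5 markers Cd79a, Ms4a1, Ebf1, Ighd and Fcmr, of which the rule had not used Ighd and Fcmr. Ighd, the IgD heavy chain, stood at 1077.2, 931, 826 and 733 CPM, which was 75.9, 58.3, 85.7 and 84.2-fold its level in all other cells of the same libraries. Fcmr, the Fc receptor for IgM, stood at 425, 489, 218 and 344 CPM and 65.6, 51.1, 53.5 and 78.5-fold above the other cells. The genes of the rule led as their choice fixed, with the lowest of the 4 folds at 51.4 for Ebf1, 48.3 for Pax5, 41.4 for Ms4a1 and 30.9 for Cd79a. The cells therefore carry the name B cells. Because B cells were picked by expression, the folds against other cells are a description of the group and not a test.

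Ranked by the lowest fold over the 4 libraries, the genes outside the rule were headed by Ighd (58.3), Fcer2a, the low-affinity IgE receptor CD23 (57.7), and Fcmr (51.1), before the sulfotransferase Chst3 (40.6) and the adaptor Bank1 (39.6). Then came Fcrl1 (29.5), the complement receptor Cr2 (27.9), the complement regulator Cd55 (22.8) and Cd79b (21.4). The unnamed gene model Gm31243 (21.5) and the fatty acid desaturase Scd1 (19.5) stood among them. Ly6d (20.5), Cxcr5, which guides B cells into follicles (19.2), the transcription factor Spib (18.6), the inhibitory lectin Cd22 (16.4) and Vpreb3 (16.3) followed. The order of neighbours in this ranking was not tested. Cr2 showed the widest span of the genes named here, from 27.9-fold in KO anti-PD-1 to 125-fold in KO IgG.

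Counted per cell, Ighd was found in 77.7, 68.0, 65.3 and 67.1% of B cells and in 2.06, 1.26, 1.38 and 1.42% of cells with a Cd3 UMI. Here and below, these Cd3 cells also had to hold no UMI of Cd79a or Csf1r. T cells should lack Ighd, so these cells serve as the measure of free RNA. A single Cd3 UMI was enough to count, so other cell types and doublets can be among them. Barring Cd79a leaves out Cd3 cells that held RNA of that B cell gene, so the measure can run low for B cell genes. Median depth was 1566, 1474.5, 1029 and 1125 UMIs in B cells and 2452, 2081, 1676 and 1662 in the Cd3 cells. The B cells were thus the shallower of these in every library. Over all cells the libraries held between 16078095 and 22506737 UMIs, and over the B cells 482731, 650052, 266362 and 133660.0. With each cell thinned to 1000 UMIs the Ighd shares in B cells were 66.5, 58.0, 47.9 and 58.8%, over the 269, 364, 94 and 51 B cells that deep. Cd79b, the second signalling chain of the receptor, was found in 74.5, 68.2, 57.2 and 68.4% of B cells against 2.26, 1.80, 1.38 and 1.73% of Cd3 cells. Vpreb3, a partner of the receptor chains, was found in 38.8, 32.8, 30.6 and 36.7% against 0.553, 0.224, 0.569 and 1.05%. The B cell shares stood far above those of the Cd3 cells in every library, a gap to which the bar on Cd79a can add.

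**Figure D1:**
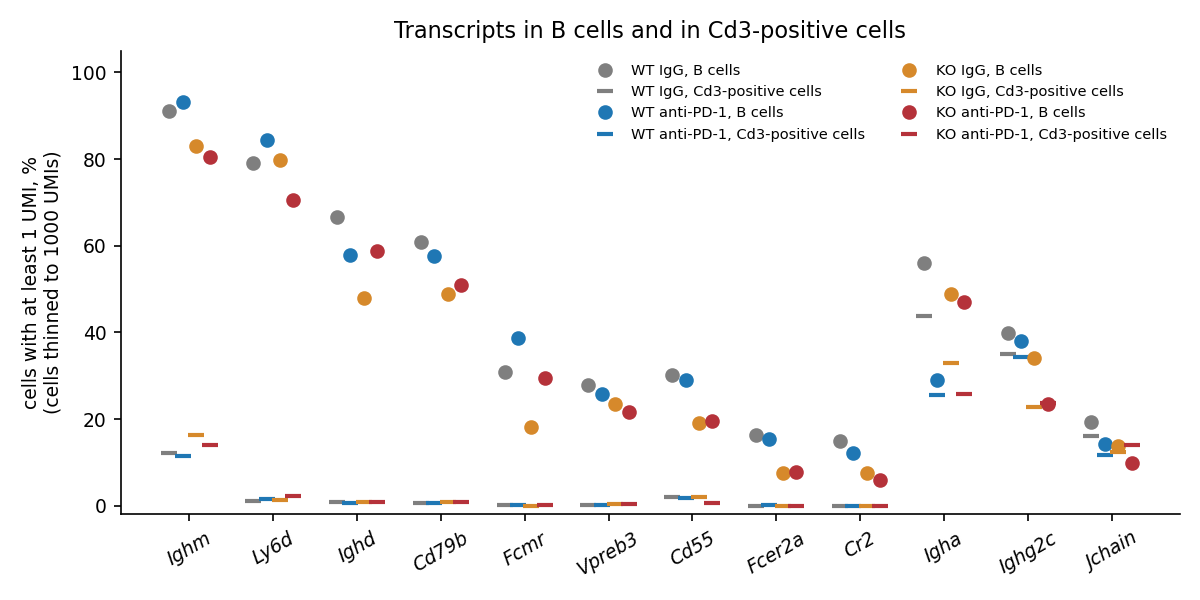
The share of cells with at least 1 UMI of each gene (y axis, percent) is plotted with every cell thinned to 1000 UMIs. Points are B cells and dashes are Cd3 cells (no UMI of Cd79a or Csf1r), coloured by library. Ighd lies between 47.9% and 66.5% of B cells and near 1% of Cd3 cells, whereas the dashes reach 43.8% for Igha and 35.1% for Ighg2c.

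B cells made up 4.84% of the cells in WT IgG (278 of 5745, 4.30 to 5.43%; exact 95% intervals, which here and below cover counting error only). They made up 6.11% in WT anti-PD-1 (384 of 6285, 5.53 to 6.73%). In KO IgG they were 2.87% (173 of 6023, 2.47 to 3.33%), and in KO anti-PD-1 1.39% (79 of 5677, 1.10 to 1.73%). WT anti-PD-1 was highest and KO anti-PD-1 lowest, and the 4 intervals did not overlap. Anti-PD-1 went with a larger share in the WT pair, a ratio of 1.26 (1.08 to 1.48), and with a smaller one in the KO pair, 0.484 (0.366 to 0.636). The KO to WT ratio was 0.594 (0.488 to 0.720) under IgG and 0.228 (0.176 to 0.291) under anti-PD-1. In sorted tissue a share also moves with every other cell type, so fewer B cells and more of the rest cannot be told apart.

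Set against the Cd3 cells, B cells numbered 14.0, 17.2, 14.1 and 4.89 per 100 Cd3 cells. WT IgG and KO IgG then stood level, with a ratio of 1.01 (0.827 to 1.22), though it was 0.649 (0.512 to 0.818) with each cell thinned to 1000 UMIs. The anti-PD-1 to IgG ratio was 1.23 (1.05 to 1.44) in WT and 0.348 (0.263 to 0.457) in KO. KO anti-PD-1 thus held the fewest B cells on both denominators. The KO libraries were shallower, with B cell medians near or under 1125 UMIs, and the rule needs 2 detected molecules. With every cell thinned to 1000 UMIs before the rule was applied, the shares were 5.54, 7.24, 2.63 and 1.81%, in the same order. Of the processings tried, the mitochondrial limit at 5% was the only one at which the interval of the WT anti-PD-1 to WT IgG ratio of shares held 1, at 1.18 (0.992 to 1.40).

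**Figure D2:**
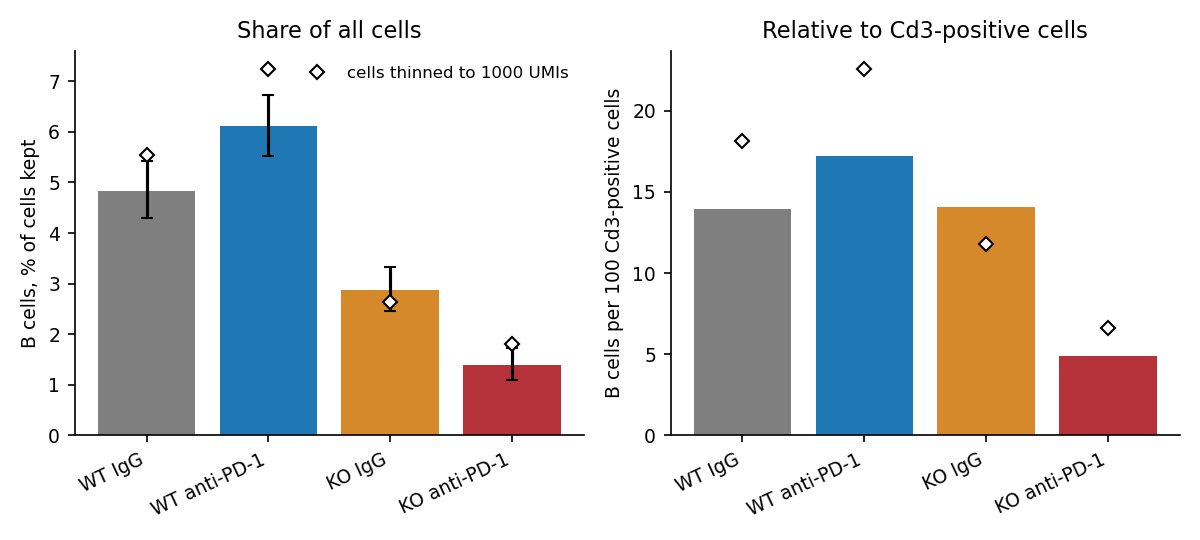
Bars give B cells as a percentage of the cells kept (left, with exact 95% intervals for counting error) and per 100 Cd3 cells (right) in the 4 libraries, and diamonds the same with each cell thinned to 1000 UMIs. The share runs from 1.39% in KO anti-PD-1 to 6.11% in WT anti-PD-1, and the number per 100 Cd3 cells from 4.89 to 17.2.

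The edges of the rule were looked at once. Members with a single Cd79a UMI numbered 31, 43, 49 and 22 and held Ighd at 1204, 1266, 855 and 668 CPM, against 1064, 898, 816 and 753 CPM in members with more. Just outside, cells that met every other condition but held 2 or more Mzb1 UMIs numbered 101, 109, 58 and 38. Their Igkc stood at 264356, 250554, 252666 and 313414 CPM and their Jchain, the joining chain of secreted IgM and IgA, at 19531.5, 18450.8, 21593.6 and 10519.3 CPM, against Jchain at 229.9, 129, 218 and 119.7 CPM in the members. Cells set aside for a Cd3 UMI alone numbered 43, 72, 16 and 30. They held Ighd at 350, 594, 1063 and 341 CPM, so B cells can be among them. Those set aside for a Csf1r UMI alone numbered 4, 16, 8 and 13, with Ighd at 185, 168, 327 and 84.2 CPM. Cells with Ms4a1, Ebf1 and Pax5 all at 0 numbered 52, 46, 44 and 32 and held Ighd at 81.6, 55.1, 42.5 and 27.1 CPM.

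The rule did not remove every mixed cell. B cells with many UMIs of another lineage (at least 20 of neutrophil, 6 of T or NK, 10 of macrophage, 5 of epithelial genes or 5 of Jchain, or over 3 times their library's median depth) numbered 11, 11, 16 and 20, or 3.96, 2.86, 9.25 and 25.3%. These limits were set after the data were seen. Cells past any of them are called mixed, or rich in other lineages, below. The neutrophil limit counted S100a8, S100a9, Retnlg, G0s2 and Csf3r. The T or NK limit counted Trac, Trbc1, Trbc2, Nkg7, Gzma, Gzmb and Klrd1. Leaving out mixed cells lowers the genes so counted, and sums that hold them, by construction. A cell can pass the depth or Jchain limit without many UMIs of another lineage, so the set can also hold large B cells. In WT IgG, for example, the deepest cell (10973 UMIs) held 4 neutrophil and 1 T or NK UMIs. The share of cells past any limit was largest in KO anti-PD-1 (interval 16.2 to 36.4%), against 1.99 to 6.97% in WT IgG. The neutrophil limit was met by 5, 6, 8 and 9 cells, the depth limit by 5, 7, 9 and 7 and the T or NK limit by 0, 1, 2 and 5, and a cell can meet several. Summed over the 12 neutrophil markers the level in B cells was 4269, 2134, 5752 and 11319.8 CPM, and 1654, 1064, 2235 and 1516 CPM once those cells were left out, against 9088, 7569.6, 10688.7 and 12594.2 CPM in Cd3 cells. No mixed cells were left out of the Cd3 cells, here or below. Between 10 and 12 of these 12 markers had a UMI in each library. The 10 NK markers summed to 429, 895, 274 and 3015 CPM, and to 326, 522, 246 and 595 CPM without those cells. The 12 T cell markers, of which Cd3 genes were barred by the rule, summed to 249, 363, 267 and 546 CPM. Values without these cells are given below wherever they move a result.

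Single cells carried some of the sums as well. In KO IgG, 1 cell of 24024 UMIs held 9.02% of all B cell UMIs of that library, among them 44 of the 51 Top2a, 444 of the 804 S100a6 and 43 of the 60 Krt8 UMIs. Another KO IgG cell, of 3849 UMIs, held 2215 of 4949 Igkc and 447 of 479 Ighg2b UMIs. In WT anti-PD-1 a cell of 10770 UMIs held 615 of 990 S100a6 UMIs. In KO anti-PD-1 the largest share of Ccr7 in 1 cell was 33.3%.

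By majority of heavy-chain UMIs, most B cells were unswitched. Ighm and Ighd UMIs outnumbered switched UMIs in 78.8, 85.4, 81.5 and 87.3% of B cells. Ighm, the IgM constant region, stood at 2679, 3064, 2256 and 2229.5 CPM and was found in 95, 96.6, 91.3 and 91.1% of B cells, against 28.5, 24.9, 28.9 and 22.5% of Cd3 cells. Ighd stood at 1077.2, 931, 826 and 733 CPM. Both chains together were found in 209, 255, 107 and 49 B cells, or 75.2, 66.4, 61.8 and 62.0%, and neither in only 7, 7, 9 and 3 cells. WT IgG held the largest share with both chains, and the other 3 lay between 61.8% and 66.4%.

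B cells with and without an Ighd UMI were compared at 1000 UMIs per cell, where they numbered 179, 211, 45 and 30 and 90, 153, 49 and 21. At this depth a cell without an Ighd UMI may still make IgD. Fcmr was found in 34.6, 41.2, 28.9 and 23.3% of the first and 23.3, 35.3, 8.16 and 38.1% of the second, and Fcer2a in 17.9, 18.0, 8.89 and 13.3% and 13.3, 11.8, 6.12 and 0%. The 0% is 0 of 21 cells, for which the exact interval reaches 16.1%. Cr2 was found in 15.6, 13.3, 11.1 and 0% and 13.3, 10.5, 4.08 and 14.3%, and Ccr7 in 30.7, 34.1, 17.8 and 36.7% and 36.7, 35.3, 24.5 and 14.3%. The follicular genes had no common direction: the shares of Fcmr, Fcer2a and Cr2 were higher beside Ighd in 3 or all 4 libraries, and those of Ccr7 lower in 3. These single differences were not tested. S100a6, a calcium-binding protein raised in memory and innate-like lymphocytes, was found in 43.0, 35.1, 48.9 and 46.7% and 37.8, 30.1, 61.2 and 61.9%. For S100a6 the share was higher beside Ighd in the WT libraries and lower in the KO libraries, also untested.

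Genes of the switched classes were detected in Cd3 cells too, though T cells should lack them. Igha, the IgA constant region, was found in 71.9, 40.9, 54.9 and 44.3% of B cells and in 77.1, 48.9, 54.7 and 51.5% of Cd3 cells. At 1000 UMIs per cell the shares were 56.1, 29.1, 48.9 and 47.1% in B cells and 43.8, 25.4, 33.0 and 25.7% in Cd3 cells. Ighg2c, an IgG class, was found in 56.1, 54.2, 34.1 and 34.2% of B cells, below the 63.8, 60.5, 40.8 and 44.0% of Cd3 cells, and Jchain in 32.0, 19.5, 13.3 and 16.5% against 36.2, 24.9, 22.8 and 25.3%. At 1000 UMIs these 2 genes gave 39.8, 37.9, 34.0 and 23.5% against 35.1, 34.4, 22.8 and 23.7% and 19.3, 14.3, 13.8 and 9.80% against 16.1, 11.8, 12.5 and 14.1%. The shares of all UMIs compare cells of unequal depth, and no expression by the B cells is read from these shares. The level of Igha was 729, 346, 567 and 441 CPM, a log2 ratio of -1.07 (-1.32 to -0.83) for WT anti-PD-1 against WT IgG, and in Cd3 cells the same ratio was -0.41. B cells in which switched UMIs outnumbered those of Ighm and Ighd numbered 39, 30, 17 and 6 (14.0, 7.81, 9.83 and 7.59%). With at least 3 heavy-chain UMIs of which at least 90% were switched, they numbered 3, 3, 7 and 1. By the same limit, cells with at least 90% Ighm and Ighd numbered 30, 80, 42 and 23 (10.8, 20.8, 24.3 and 29.1%). Most B cells thus met neither limit. Ighg2b and Ighg2c are related genes of separate IgG classes, and whether reads were split between them was not tested.

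Lambda light chains separated B cells from background more than kappa did. Igkc, the kappa constant region, had a UMI in 99.6, 100, 100 and 97.5% of B cells but also in 99.2, 96.7, 94.2 and 91.6% of Cd3 cells (99.3, 99.5, 100 and 100% against 87.0, 79.5, 77.3 and 67.6% at 1000 UMIs). Iglc2, a lambda constant region, had one in 73.0, 73.2, 70.5 and 75.9% of B cells and 5.83, 3.73, 1.95 and 9.10% of Cd3 cells, and Iglc3 in 78.8, 77.9, 75.1 and 62.0% and 3.42, 2.29, 4.55 and 3.53%. Some lambda UMI was present in 93.2, 92.2, 92.5 and 91.1% of B cells, and 3 or more in 70.5, 71.6, 65.9 and 64.6%. Lambda UMIs outnumbered kappa UMIs in 19, 37, 14 and 9 B cells, or 6.83, 9.64, 8.09 and 11.4%, and their intervals overlapped across the 4 libraries. With at least 3 light-chain UMIs of which at least 90% were lambda, they were 1, 4, 0 and 5 cells, or 0.360, 1.04, 0 and 6.33%. Cells with at least 90% kappa numbered 69, 80, 30 and 18, so most B cells met neither limit. Under the lambda limit the interval of KO anti-PD-1 (2.09 to 14.2%) lay above that of WT IgG (0.00911 to 1.99%), and they overlapped at 1000 UMIs per cell. In the cells where lambda outnumbered kappa, the median counts of lambda were 18, 13, 7.50 and 14 UMIs, against 5, 4, 4 and 1 of kappa. In the kappa cells the median was 4, 4, 3 and 3 lambda and 19, 18, 12 and 12 kappa UMIs. Cd3 cells held a median of 0 lambda UMIs in every library and 6, 4, 3 and 2 of kappa. The kappa cells thus held more lambda UMIs than Cd3 cells did, and why they did was not tested. Iglc2 and Iglc3 are near-identical, so the split between them is uncertain and the sum of Iglc1, Iglc2 and Iglc3 is used for the classes.

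**Figure D3:**
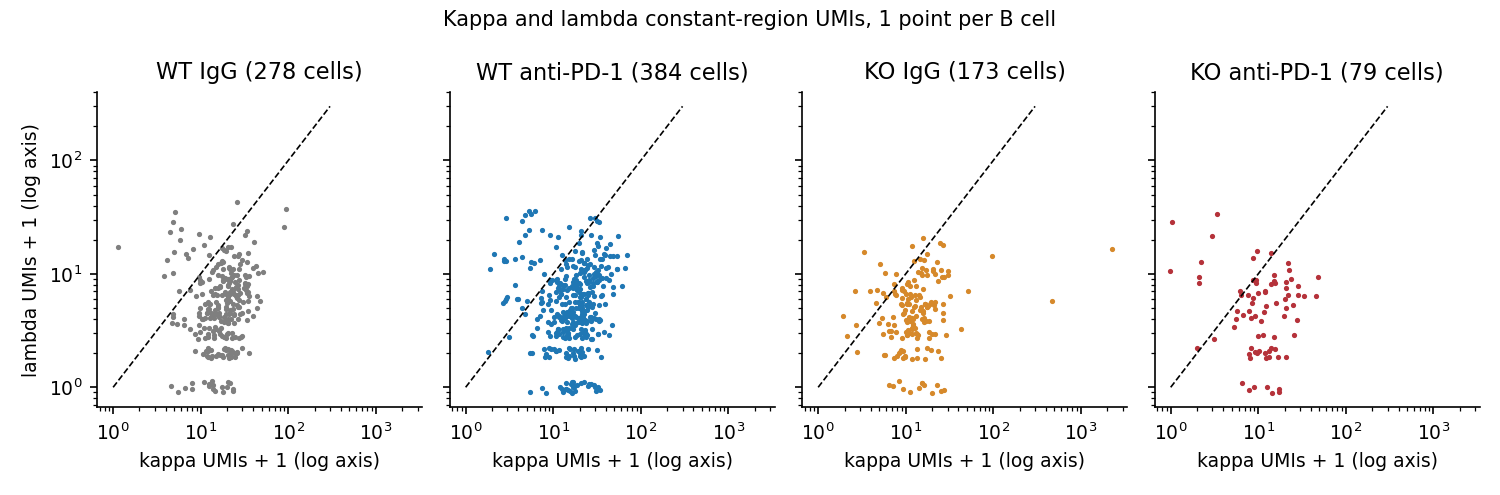
Each point is 1 B cell, with its kappa UMIs (Igkc) on the x axis and its lambda UMIs (Iglc1, Iglc2 and Iglc3) on the y axis, both with 1 added and on log axes, 1 panel per library, with points shifted slightly so that equal counts show. Cells above the dashed diagonal hold more lambda than kappa UMIs and number 19, 37, 14 and 9.

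For expression, a gene was measured if its mean over the 4 libraries reached 50 CPM, which 2470 genes did; 1 of them, Mmp12, was left out of KO against WT under anti-PD-1, since it had 2 UMIs in each of these libraries. Ratios are log2 ratios of CPM with exact intervals. These intervals take UMIs as independent and leave out the spread between cells, so they run narrow where few cells hold many UMIs. The 4 contrasts share libraries, so KO against WT under IgG is set beside KO against WT under anti-PD-1, and the WT pair beside the KO pair. As background, 15.7% of measured genes lay above WT IgG by 1.5-fold or more in KO IgG, and 7.81% lay below it by as much. For WT anti-PD-1 against WT IgG these shares were 4.98% and 3.32%. In the KO pair, 14.2% were higher and 18.8% lower under anti-PD-1. For KO against WT under anti-PD-1 they were 16.4% and 15.3%. The median of all genes lay at 0.09, 0.03, -0.01 and 0.01 in that order of contrasts, which is kept below.

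Of the receptor and signalling genes, 18 of 20 were measured, with list medians of -0.16, 0.02, -0.19 and -0.27. The counts past 1.5-fold were 0 higher and 6 lower, 0 higher and 0 lower, 3 higher and 4 lower and 0 higher and 5 lower. Cd79b stood at 961, 809, 612 and 853 CPM, lowest in KO IgG, with a KO to WT ratio under IgG of -0.65 (-0.92 to -0.39). Without the cells rich in other lineages that ratio was -0.19. Lyn, a kinase that both starts and restrains receptor signals, stood at 147, 149, 52.6 and 172 CPM, low in KO IgG alone. Its ratio was -1.48 (-2.43 to -0.64) for KO against WT under IgG and 1.71 (0.69 to 2.78) for the KO pair, and -1.74 and 2.34 without the mixed cells, while Cd3 cells gave 0.20 and 0.58. Bank1, the adaptor that links Lyn to calcium release, stood at 425, 472, 289 and 195 CPM, with a KO to WT ratio under anti-PD-1 of -1.28 (-1.92 to -0.70), and -1.04 without the mixed cells. Cr2 was lowest in KO anti-PD-1, at 143, 138, 75.1 and 44.9 CPM. Summed over the list, B cells without the mixed cells held 4186.8, 4160.0, 3973 and 4506 CPM, against 4085, 4015, 3056 and 3292 CPM with them. Among the remaining cells the sums of the 4 libraries lay closer together, with KO anti-PD-1 highest, and the list medians without mixed cells were -0.10, -0.02, 0.02 and 0.16.

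Lineage transcription factors were measured for 15 of 16 genes, with medians of -0.30, 0.08, -0.03 and -0.47 and counts past 1.5-fold of 0 higher and 3 lower, 0 higher and 0 lower, 2 higher and 1 lower and 1 higher and 5 lower. Without the mixed cells the medians were -0.08, 0.06, -0.16 and -0.07. Mef2c, a factor needed for the response to receptor signals, stood at 1042, 1055.3, 762 and 509 CPM, high in both WT libraries and lowest in KO anti-PD-1. Its KO to WT ratio was -0.45 (-0.69 to -0.21) under IgG and -1.05 (-1.43 to -0.69) under anti-PD-1, and -0.11 and -0.68 without the mixed cells. Foxo1, which drives the receptors for homing and recirculation, stood at 108, 103, 41.3 and 59.9 CPM, with KO to WT ratios of -1.38 (-2.47 to -0.43) under IgG and -0.78 (-2.05 to 0.28) under anti-PD-1, and -0.92 and -0.17 without the mixed cells. Ikzf3 (Aiolos) stood at 118, 118, 52.6 and 112 CPM, low in KO IgG alone. Pou2f2 (Oct-2), which binds the octamer shown for Vpreb3, stood at 290.0, 285, 199 and 127 CPM, with a KO to WT ratio under anti-PD-1 of -1.16 (-1.97 to -0.44), and -0.68 without the mixed cells. Spi1 (PU.1), also a myeloid factor, stood at 84.9, 61.5, 93.9 and 179.6 CPM, with 25% of its KO anti-PD-1 UMIs in 1 cell. The WT pair differed by less than 1.5-fold for all 15 factors.

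Genes of naive follicular B cells leaned lower in the KO libraries than in the WT libraries. All 15 of 15 were measured, with medians of -0.53, -0.03, -0.17 and -0.63 and counts past 1.5-fold of 0 higher and 6 lower, 0 higher and 0 lower, 3 higher and 3 lower and 0 higher and 9 lower. The 6 lower under IgG stand against 7.81% of all measured genes, and the 9 lower under anti-PD-1 against 15.3%. The medians of both KO to WT contrasts lay below 0 under every processing tried, from -0.73 to -0.18 under IgG and from -0.85 to -0.36 under anti-PD-1, where the ends nearest 0 came from leaving out the mixed cells. Without mixed cells 12 and 11 of the 15 genes lay below 0, where the medians of all measured genes were 0.08 and 0.07. The KO libraries were also those with more mixed cells and less depth. With each cell thinned to 1000 UMIs the medians were -0.55 and -0.47, and whether other differences between the libraries have a part was not tested.

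Ccr7, the chemokine receptor for entry into lymph nodes and T cell zones, stood at 474, 452, 191 and 606 CPM. Its share of B cells with a UMI was 43.5, 43.5, 23.1 and 40.5%, or 32.7, 34.6, 21.3 and 27.5% at 1000 UMIs. Level and share were lowest in KO IgG. The level was highest in KO anti-PD-1, where 1 cell held 27 of the 81 UMIs, and the share was not. The ratios were -1.31 (-1.78 to -0.87) for KO against WT under IgG and 1.66 (1.14 to 2.20) for the KO pair. Without mixed cells these were -0.81 and 0.95, and in Cd3 cells the first was -0.71. Fcmr stood at 425, 489, 218 and 344 CPM, with -0.96 (-1.41 to -0.54) and -0.51 (-0.99 to -0.06) for KO against WT under IgG and under anti-PD-1. Cd55 stood at 342, 349, 237 and 187 CPM and Foxp1, a factor of quiescent B cells, at 503, 588, 364 and 329 CPM, with KO to WT ratios under anti-PD-1 of -0.90 (-1.56 to -0.30) and -0.84 (-1.32 to -0.38), and of -0.44 and -0.36 without mixed cells. Klf2, which keeps lymphocytes in circulation, stood at 856, 925, 612 and 599 CPM, and each KO library was below each WT library, as it also was without mixed cells (899, 959, 833 and 723 CPM). Tnfrsf13c, the BAFF receptor, stood at 104, 149, 124 and 52.4 CPM, lowest in KO anti-PD-1, where it rests on few UMIs.

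**Figure D4:**
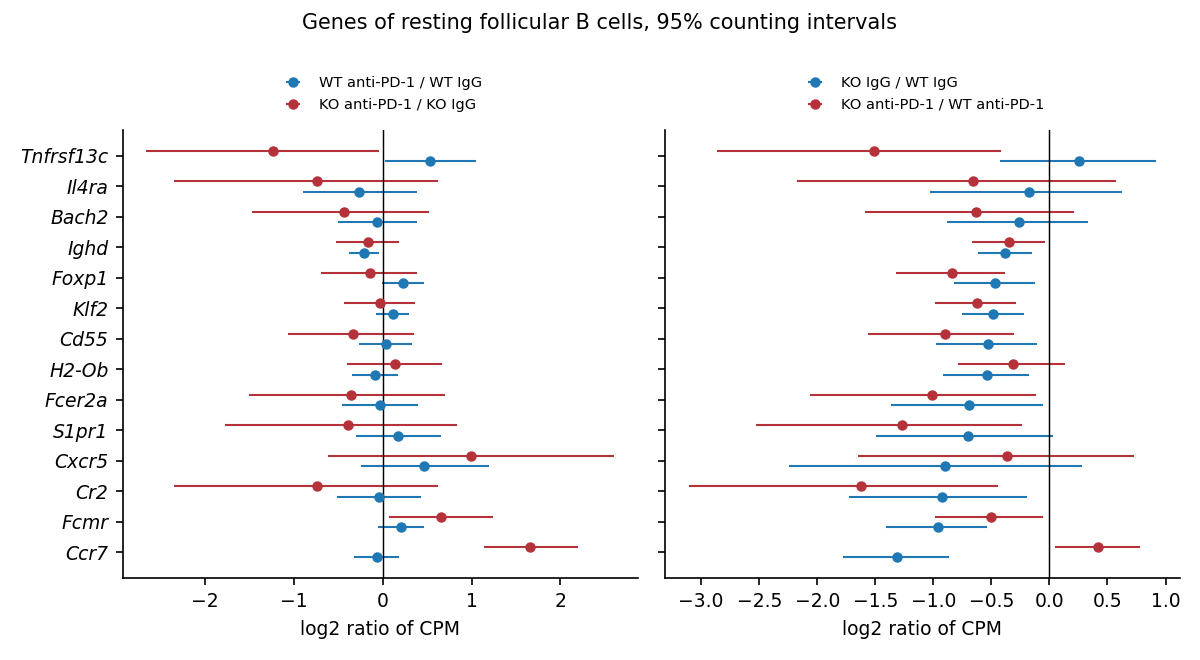
The log2 ratio of CPM in B cells (x axis) is plotted for 14 of the 15 follicular naive genes, with exact 95% counting intervals: anti-PD-1 against IgG on the left and KO against WT on the right. On the right most points lie left of 0, such as Cr2 at -0.93 and -1.62, and on the left the WT pair lies near 0 while Ccr7 of the KO pair lies at 1.66.

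Receptors for migration and positioning gave medians of -0.04, 0.03, -0.36 and -0.36 over 11 of 20 genes, with 1 higher and 4 lower, 0 higher and 0 lower, 2 higher and 3 lower and 1 higher and 3 lower past 1.5-fold. Gpr183 (EBI2), the oxysterol receptor that places B cells at the outer follicle, stood at 224, 206, 86.3 and 67.3 CPM, and both KO libraries lay below both WT libraries. Its KO to WT ratio was -1.37 (-2.09 to -0.71) under IgG and -1.61 (-2.77 to -0.65) under anti-PD-1, and -1.01 and -1.63 without mixed cells, while Cd3 cells gave -0.56 under IgG. S1pr1, the exit receptor for egress into the blood, stood at 128, 145, 78.8 and 59.9 CPM, and Gpr174 at 112, 92.3, 109 and 29.9 CPM, lowest in KO anti-PD-1. Cxcr4 stood level at 609, 623, 597 and 584 CPM. The sign of the KO to WT medians was not stable, since without mixed cells they were 0.20 and 0.09.

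B cells present antigen on MHC class II. Cd74, the invariant chain, stood at 16425.3, 15869.5, 13905.9 and 15165.3 CPM and H2-Aa at 4576, 4059.7, 3379 and 4624 CPM. Over 15 of 16 class II genes the medians were -0.24, -0.05, 0.13 and -0.07, with 1 higher and 3 lower, 1 higher and 1 lower, 2 higher and 2 lower and 1 higher and 3 lower past 1.5-fold. H2-Oa, which tempers peptide loading in B cells, stood at 240.3, 242, 135 and 135 CPM, with KO to WT ratios of -0.83 (-1.41 to -0.28) under IgG and -0.84 (-1.63 to -0.14) under anti-PD-1, and -0.64 and -0.47 without mixed cells. H2-DMb2 stood at 588, 586, 405 and 322 CPM, with -0.87 (-1.36 to -0.41) for KO against WT under anti-PD-1 and -0.17 without mixed cells. Ctss, the protease that trims the invariant chain, and Lgmn are also macrophage genes; 1 KO IgG cell held 27.8% and 51.1% of their UMIs there. Without mixed cells the class II medians were -0.15, 0.00, -0.07 and -0.19, so the small difference of the KO pair changed sign.

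MHC class I genes leaned higher under anti-PD-1 in both pairs, in B cells and in Cd3 cells alike. Summed over the 21 genes, Cd3 cells held 11048, 13709, 8856 and 11917 CPM. B cells held 8388, 9592, 7689 and 9749 CPM. Over 20 of 21 genes the medians were -0.13, 0.14, 0.29 and 0.07, with 0 higher and 2 lower, 2 higher and 0 lower, 6 higher and 2 lower and 1 higher and 3 lower past 1.5-fold. H2-K1, a classical class I heavy chain, stood at 1206, 1377, 949.8 and 1624 CPM, with 0.19 (0.04 to 0.34) in the WT pair and 0.77 (0.51 to 1.04) in the KO pair. H2-Q6 stood at 109.8, 175, 90.1 and 195 CPM, with 0.68 (0.19 to 1.17) and 1.11 (0.25 to 1.97), and H2-Q7 at 178, 285, 139 and 142 CPM, with 0.68 (0.30 to 1.06) and 0.03 (-0.85 to 0.87). The H2-Q genes are near-identical, so their reads can be split. Psme2, a proteasome activator induced by interferon, stood at 234, 255, 135 and 359 CPM, low in KO IgG and high in KO anti-PD-1. Calr, a chaperone of class I folding, stood at 215, 223, 169 and 97.3 CPM, lowest in KO anti-PD-1. Above 0 lay 17 of 20 genes in the WT pair and 17 of 20 in the KO pair, where the medians of all measured genes were 0.03 and -0.01. Without mixed cells the medians of the 2 pairs were 0.27 and 0.33. The KO to WT median under anti-PD-1 changed sign with TMM factors (-0.15), so no direction is read from it.

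Genes of the interferon gamma response also leaned higher under anti-PD-1 in both pairs, in B cells and in Cd3 cells alike. In B cells 8 of 9 lay above 0 in each pair, where the medians of all measured genes were 0.03 and -0.01. Summed over the 28 genes, Cd3 cells held 2450, 3097, 1839 and 2648 CPM. B cells held 1645, 2001, 1397 and 2140 CPM. Only 9 of 28 were measured, with medians of -0.14, 0.39, 0.49 and 0.09 and 1 higher and 3 lower, 0 higher and 0 lower, 4 higher and 0 lower and 1 higher and 1 lower past 1.5-fold. Ly6a (Sca-1), induced by interferons, stood at 339.7, 449, 210.2 and 479 CPM, and each anti-PD-1 library was above its IgG library. The ratios were 0.40 (0.12 to 0.69) in WT and 1.19 (0.65 to 1.73) in KO, and 0.54 and 1.10 without mixed cells. Cd3 cells of the KO pair gave 1.36, so Ly6a was not higher in B cells alone. Tap1, the peptide transporter, stood at 84.9, 114, 60.1 and 97.3 CPM, with 0.42 (-0.15 to 1.01) and 0.70 (-0.48 to 1.84), and Psmb10 of the immunoproteasome at 126, 142, 128 and 217 CPM. The single-gene intervals of Tap1 and Psmb10 held 0 or ended at it. The list medians of both pairs lay above 0 under every processing tried, from 0.24 to 0.43 in WT and from 0.34 to 0.64 in KO. The KO to WT medians changed sign, to 0.15 without mixed cells under IgG and to -0.13 with TMM factors under anti-PD-1. KO IgG held the lowest level of Ly6a, Tap1 and Psme2, so a ratio to it is read against a low reference. Of the type I interferon list 3 of 25 passed the filter; Ifi27l2a stood at 404, 558, 267 and 329 CPM and Bst2 at 93.2, 100, 86.3 and 239 CPM, with 43.8% of the last in 1 cell.

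Genes induced by antigen contact gave medians of -0.20, 0.16, 0.31 and 0.14 over 16 of 24, with 2 higher and 2 lower, 1 higher and 2 lower, 7 higher and 2 lower and 6 higher and 5 lower past 1.5-fold. Cd83, an activation marker, stood at 336, 392, 191 and 239 CPM, with KO to WT ratios of -0.81 (-1.29 to -0.35) under IgG and -0.71 (-1.29 to -0.18) under anti-PD-1, and -0.56 and -1.19 without mixed cells. Cd44, a marker of antigen-experienced lymphocytes, stood at 82.9, 96.9, 169 and 277 CPM, with KO to WT ratios of 1.03 (0.38 to 1.68) and 1.51 (0.89 to 2.12), and 0.49 and 1.18 without mixed cells. Nfkbia, an NF-kB inhibitor and target, stood at 254.8, 298, 300.3 and 569 CPM, though its ratio of 0.92 (0.45 to 1.39) in the KO pair was 0.16 without mixed cells. Nfkbid stood at 108, 166, 203 and 67.3 CPM, lowest in KO anti-PD-1 with and without them, at -1.59 and -1.79 in the KO pair. Ccl4, a chemokine of activated cells, stood at 232, 134, 289 and 456 CPM, with 70.5% of its WT IgG UMIs in 1 cell. The list therefore held members in both directions.

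Survival genes gave medians of 0.25, 0.06, 0.10 and 0.35 over 12 of 16, with 2 higher and 1 lower, 1 higher and 0 lower, 4 higher and 2 lower and 4 higher and 3 lower past 1.5-fold. Pim1, a survival kinase, stood at 191, 191, 327 and 584 CPM, with 0.78 (0.34 to 1.22) and 1.61 (1.19 to 2.03) for KO against WT under IgG and under anti-PD-1, and 0.98 and 0.98 without mixed cells. Tnfrsf13b (TACI), which like the BAFF receptor binds BAFF, stood at 84.9, 100, 75.1 and 29.9 CPM, lowest in KO anti-PD-1. Tnfrsf13b and the BAFF receptor Tnfrsf13c thus both had their lowest level there. In that library 1 UMI is 7.48 CPM, so these levels rest on few UMIs, and their order was not tested. Bcl2a1d, an anti-apoptotic gene also active in neutrophils, stood at 66.3, 96.9, 78.8 and 232 CPM, with 1.26 (0.59 to 1.9) for KO against WT under anti-PD-1 and 0.20 without mixed cells. Bcl2a1a, Bcl2a1b and Bcl2a1d are near-identical, so reads can be split among them.

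Genes of the germinal centre and of the plasma cell are given next, with the limit that the rule itself had removed cells with more than 1 UMI of Mzb1, a plasma cell gene. The B cells held a median of 2, 2, 1 and 2 UMIs of the 15 plasma cell genes per cell. Tnfrsf17 (BCMA), the survival receptor of plasma cells, had no UMI in any of the 914 cells. Taken as 3 cells of each library, this allows a share of up to 1.08, 0.781, 1.73 and 3.80% of cells with a UMI, and the exact intervals reach 1.32, 0.956, 2.11 and 4.56%. Bcl6, the germinal centre factor, had a UMI in 8, 9, 3 and 1 B cells and Mki67, a proliferation marker, in 1, 2, 3 and 1. Summed over the 16 germinal centre genes the level was 545, 568, 514 and 666 CPM in B cells and 524, 555, 542 and 551 CPM in Cd3 cells. Rag1, a gene of immature B cells, had a UMI in 0, 1, 0 and 1 cells.

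Lists that other cells share moved with single cells. Of the B-1 and innate-like genes 7 of 14 were measured, and the median was 1.69, 0.72, -0.25 and 0.79. S100a6 stood at 638, 1523, 3018 and 1968 CPM and Lgals1, a galectin, at 147, 420.0, 1126 and 636 CPM, and the largest share in 1 cell was 62.1% of S100a6 in WT anti-PD-1 and 50% of Lgals1 in KO IgG. Without mixed cells the S100a6 ratio for KO against WT under IgG was 0.51 in place of 2.24, and the list median 0.51 in place of 1.69. Under anti-PD-1 the KO to WT median of this list was 0.79, and 0.72 without mixed cells. Ahnak, a large scaffold protein, stood at 53.9, 95.4, 195 and 165 CPM, with 0.79 (0.01 to 1.51) there and 1.41 without them. Cd5, which marks B-1a cells, had a UMI in 2, 2, 0 and 2 B cells and Spn (CD43) in 0, 10, 1 and 2, so the list's leading genes are not its defining ones.

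Proliferation genes (8 of 26) had medians of 0.91, 0.09, -0.71 and 0.31, of which the first was 0.32 without mixed cells and the third 0.22 as a mean over cells. Top2a, which separates DNA strands in dividing cells, stood at 4.14, 10.8, 191 and 22.4 CPM, and 86.3% of its KO IgG UMIs came from 1 cell. Glycolysis genes (10 of 18) had medians of 0.81, -0.01, -0.12 and 0.63, and 0.11, -0.11, 0.19 and 0.57 without mixed cells. The KO to WT median of this list under anti-PD-1 kept its size without those cells, while the one under IgG did not. Gapdh stood at 276, 312, 484 and 584 CPM and Eno1 at 124, 81.5, 150.2 and 202 CPM, with 0.90 (0.51 to 1.29) and 1.31 (0.58 to 2.0) for KO against WT under anti-PD-1. Oxidative phosphorylation genes (26 of 26) had medians of 0.35, 0.16, 0.06 and 0.28 and 0.21, 0.15, 0.11 and 0.26 without mixed cells. In all 4 contrasts the oxidative phosphorylation median lay above that of all measured genes. Summed over the 18 glycolysis genes, Cd3 cells held 3489, 3170, 3711 and 5277 CPM. Over the 26 oxidative phosphorylation genes they held 13958.5, 15065, 15720.5 and 17075 CPM. Both sums were thus higher in KO than in WT in Cd3 cells too, under IgG and under anti-PD-1.

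**Figure D5:**
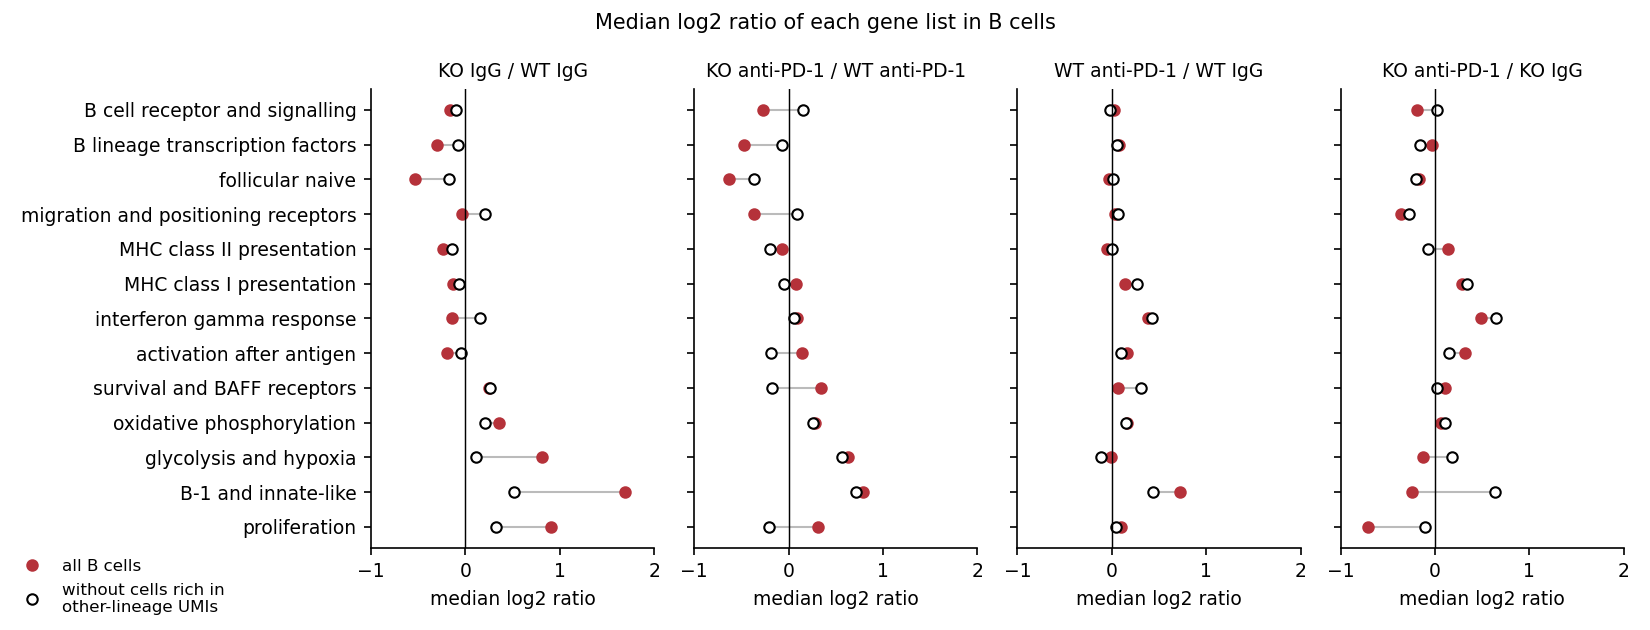
The median log2 ratio of each gene list in B cells (x axis) is plotted for the 4 contrasts. It is shown with all B cells and without the mixed cells, those past a limit of another lineage, Jchain or depth. The follicular naive median lies at -0.53 and -0.63 in the KO to WT contrasts with all cells and at -0.18 and -0.36 without those cells, and the B-1 list moves from 1.69 to 0.51 in KO IgG against WT IgG.

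Gene by gene, the WT pair differed least. Only 20 of 2470 genes (0.81%) were at least 2-fold higher in WT anti-PD-1 than in WT IgG and 19 (0.769%) lower. Ifitm3, an interferon-induced membrane protein that restricts viruses, stood at 60.1, 195, 93.9 and 322 CPM, with 1.70 (1.11 to 2.34) in B cells, 0.94 without mixed cells and 0.56 in Cd3 cells. Etfa, an electron carrier of mitochondria, stood at 18.6, 58.5, 52.6 and 82.3 CPM, with 1.65 (0.58 to 2.88) against 0.01 in Cd3 cells. Stk11 (Lkb1), a kinase of energy sensing, stood at 31.1, 73.8, 52.6 and 67.3 CPM, with 1.25 (0.39 to 2.19) against 0.07. Lower genes were Igha, given above, and Faim, an inhibitor of cell death, at 72.5, 33.8, 71.3 and 44.9 CPM, with -1.10 (-1.94 to -0.29) against 0.25 in Cd3 cells.

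In KO IgG against WT IgG, 136 genes (5.51%) stood 2-fold or more above and 36 (1.46%) as far below, so 79.1% of the 2-fold differences were higher. That split was 51.2% with TMM factors and 68.3% with median-of-ratios factors, and the counts without mixed cells were 66 and 58. The lower genes held Ccr7, Gpr183, Lyn and Foxo1, described above. Gpr171, a G protein-coupled receptor, stood at 169.9, 140.0, 63.8 and 142 CPM, with -1.41 (-2.26 to -0.65) against 0.03 in Cd3 cells. Khdrbs1 (Sam68), an RNA-binding protein, stood at 145, 138, 56.3 and 127 CPM, with -1.36 (-2.28 to -0.55) against 0.06. Slamf6, a lymphocyte adhesion receptor, stood at 84.9, 106, 30.0 and 37.4 CPM and Gimap4, a GTPase of lymphocytes, at 189, 165, 90.1 and 187 CPM, with -1.50 (-2.80 to -0.39) and -1.06 (-1.78 to -0.40). Each of these 4 was lower in KO IgG than in WT IgG also without mixed cells, at -1.04, -1.18, -1.14 and -0.70. Slamf6 and Gimap4 were lower in Cd3 cells too, at -0.39 (-0.66 to -0.13) and -0.31 (-0.43 to -0.19). Over all other cells the 4 genes gave -0.09, -0.03, -0.67 and -0.80, so the last 2 were not lower in B cells alone.

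Among the higher genes of that contrast were several of myeloid cells. Cxcl2, a neutrophil chemokine, stood at 485, 303, 1509 and 2139.8 CPM, with 1.64 (1.40 to 1.88) in B cells, 1.20 without mixed cells and 0.75 in Cd3 cells. Clec4e (Mincle) stood at 39.4, 29.2, 154 and 29.9 CPM and G0s2 at 201, 195, 563 and 1519 CPM, with 2.0 and 1.48 without mixed cells and 0.65 and 0.62 in Cd3 cells. G0s2 itself counts toward the neutrophil limit. Fcer1g, the Fc receptor gamma chain, stood at 176, 285, 462 and 546 CPM, and its ratio of 1.39 was 0.15 without mixed cells and 0.25 in Cd3 cells. All of them were higher in the Cd3 cells of KO IgG too. The summed neutrophil markers given above were also higher in the B cells of KO IgG than of WT IgG, and their part in these genes was not tested.

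In the KO pair, 106 genes (4.29%) stood 2-fold or more above KO IgG in KO anti-PD-1 and 190 (7.69%) as far below, from 79 and 173 cells. AW112010, an interferon-induced transcript, stood at 224, 354, 173 and 546 CPM, with 1.66 (1.11 to 2.23) in B cells, 1.44 without mixed cells and 0.65 in Cd3 cells. Ifitm3 gave 1.78 (1.03 to 2.55) and Ifitm1 1.61 (1.02 to 2.22), and 0.66 and 0.93 without mixed cells. AW112010, Ifitm3, Ly6a and Psme2 are interferon-responsive genes that were higher in KO anti-PD-1 with and without the mixed cells. They were higher in Cd3 cells too, at 0.65, 1.48, 1.36 and 0.50, and Ifitm1 gave 0.51 there. Over all other cells the same 4 genes gave 1.04, 0.83, 1.10 and 0.61, so they were not higher in B cells alone. Il1b, a cytokine of neutrophils and macrophages, had a ratio of 1.25 in B cells, which turned to -0.82 without the mixed cells. Scgb1a1, a club cell gene, had 45 UMIs in KO anti-PD-1 and 0 in KO IgG, a log2 ratio of 4.90 with the 0 taken as 3 UMIs and of at least 4.54 by the exact interval, and in Cd3 cells the ratio was 7.36.

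Lower genes of the KO pair included some that were lower in Cd3 cells as well. Gm42418, a predicted gene, stood at 1956, 1308, 1314 and 247 CPM, with -2.41 (-2.97 to -1.90) in B cells and -3.44 in Cd3 cells. Hist1h1e, a linker histone, stood at 199, 157, 176 and 22.4 CPM, with -2.97 (-5.30 to -1.34) against -1.60. Samd9l stood at 247, 237, 218 and 67.3 CPM, with -1.69 (-2.89 to -0.67) against -1.17. Gm31243, a predicted gene among the 40 leading B cell genes, stood at 251, 289, 252 and 37.4 CPM, low in KO anti-PD-1 alone, with -2.75 (-4.42 to -1.46). Gsk3b, a kinase of metabolism and survival, stood at 91.1, 83.1, 90.1 and 15.0 CPM, from 2 UMIs in KO anti-PD-1, with -2.59 (-5.72 to -0.58) against -0.27. Low counts in 79 cells make these ratios imprecise.

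For KO against WT under anti-PD-1, 170 genes (6.89%) stood 2-fold or more above and 150 (6.08%) as far below, and 53.1% of these were higher, or 30.9% with TMM and 38.5% with median-of-ratios factors. The neutrophil genes S100a8 and S100a9 were among the higher genes with 2.42 (2.25 to 2.58) and 2.0 (1.74 to 2.26), and gave 0.53 and 0.51 without mixed cells. Both genes count toward the neutrophil limit, so leaving out those cells lowers their levels by construction. Ifitm1 stood at 102, 47.7, 154 and 471 CPM, with 3.31 (2.66 to 3.97), 1.99 without mixed cells and 1.06 in Cd3 cells. Bank1 and Mef2c were among the 10 named lower genes, and Mef2c gave 0.31 in Cd3 cells (interval -0.13 to 0.75) and -0.93 over all other cells. Fchsd2, an adaptor of endocytosis, stood at 276, 249, 210.2 and 74.8 CPM, with -1.74 (-2.82 to -0.82) in B cells and -0.98 in Cd3 cells. Gm42418 and Hist1h1e were lower here too, at -2.40 and -2.81. They gave -3.32 and -1.96 in Cd3 cells and -3.61 and -2.04 over all other cells, so they were not lower in B cells alone.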

How the data were processed

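Single-cell RNA was counted in 4 libraries, 1 per group. The deposited matrices hold UMI counts per gene and cell made with Cell Ranger 3.0.0, per the file headers; bcl2fastq and Cell Ranger are named in the submitters' processing notes. Those notes name hg19 while the 31053 gene IDs are mouse Ensembl IDs, so the build was not established and no coordinates were taken from the counts. The lowest deposited cell held 500 UMIs. CPM is the B cell UMIs of a gene scaled to 1000000 B cell UMIs of a library, computed here from the deposited counts. Ratios have exact conditional Poisson intervals and shares Clopper-Pearson intervals, at 95%.

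The members and gene lists were chosen with earlier results of these data known. Of 477 symbols in 34 lists, 4 were not matched in the feature table, and for 35 duplicated symbols the first row was used. List examples are the members whose interval lay farthest from a ratio of 1. Other named genes are up to 10 higher and 10 lower per contrast, with at least a 2-fold difference, mean CPM of at least 50, an interval without 1, at most 25% of UMIs in 1 cell and at least 1.5-fold as a mean over cells. Further genes of the lists, the split of cells by Ighd and the edges of the rule were chosen after their values were seen.

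Doublets were left in; leaving out cells with a Scrublet score over 0.25 (expected rate 0.06) and cells rich in UMIs of another lineage were alternatives, the second chosen after seeing the data. The scripts were tested on simulated data. Some members of the lists enter the counts and medians but are not reported here by name. No cell had an identical profile in 2 libraries; shared barcodes were not counted, because the barcode list of 6074 entries matched 1 library. Python 3.11.15, numpy 2.4.6, scipy 1.17.1, pandas 2.3.3, scanpy 1.11.5 and matplotlib 3.10.9 were used.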

Additional observations from a re-analysis of the deposited data

Results flagged for a closer look

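The share of B cells moved in opposite directions with anti-PD-1 in the 2 tumour genotypes. The ratio of shares was 1.26 in the WT pair and 0.484 in the KO pair. Per Cd3 cell the ratios were 1.23 and 0.348. Each group is 1 library, so the difference between the pairs was not tested.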

How the results depend on the processing

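Shares of B cells moved by more than their counting interval in 15 of 36 alternatives. With each cell thinned to 1000 UMIs the share was 5.54% in WT IgG, 7.24% in WT anti-PD-1 and 1.81% in KO anti-PD-1. Without the need for Ms4a1, Ebf1 or Pax5 it was 5.74%, 6.84%, 3.6% and 1.96% in the 4 libraries. With at least 2 Cd79a UMIs it was 5.43% in WT anti-PD-1, 2.06% in KO IgG and 1.00% in KO anti-PD-1. At most 5% mitochondrial UMIs gave 5.30% in WT anti-PD-1 and 1.08% in KO anti-PD-1. In WT anti-PD-1, at least 500 genes gave 6.73% and allowing 1 Cd3 UMI gave 6.81%, and in KO anti-PD-1 leaving out the mixed cells gave 1.04%. The KO IgG to WT IgG ratio was 0.475 thinned (0.649 per Cd3 cell) and 0.479 with at least 2 Cd79a UMIs. The ratio of the KO pair was 0.687 thinned (0.560 per Cd3 cell), and that of KO to WT under anti-PD-1 was 0.175 without the mixed cells (0.218 per Cd3 cell). Mixed cells were taken out of the B cells alone and not out of either denominator. Their share of B cells was largest in KO anti-PD-1, so the last ratio had to fall. Every ratio of shares kept its side of 1 under the alternatives run.

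Counts of genes past 2-fold followed the filter and the cells, higher and lower in that order. For KO against WT under IgG they were 84 and 80 with TMM factors, 206 and 123 thinned, 392 and 147 at a mean of 25 CPM, 47 and 11 at 100 CPM, and 66 and 58 without the mixed cells. There, 85 were higher as a mean over cells and 53 without the top cell of each gene. For the WT pair they were 45 and 31 thinned, 110 and 71 at 25 CPM, 5 and 9 at 100 CPM, 11 and 7 without the top cell, and 10 and 10 without the mixed cells, with 11 higher as a mean over cells. For the KO pair they were 293 and 349 thinned, 299 and 535 at 25 CPM, and 48 and 48 at 100 CPM, with 184 higher as a mean over cells and 182 without the mixed cells. For KO against WT under anti-PD-1 they were 111 and 248 with TMM, 302 and 310 thinned, 436 and 391 at 25 CPM, and 67 and 48 at 100 CPM, and 88 and 217 without the top cell of each gene. TMM factors moved the median of all genes from 0.09 to -0.12 in KO against WT under IgG and from 0.01 to -0.22 under anti-PD-1.

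Of the list medians, 458 of 468 alternatives stayed within the spread used, and the others were these. In KO against WT under IgG the B-1 median was 0.50 as a mean over cells, 0.71 at 25 CPM and 0.51 without the mixed cells. The proliferation median was 0.39, 0.36 (thinned) and 0.32 in that contrast, and that of glycolysis 0.064, 0.082 and 0.11, with the mean over cells first and without the mixed cells last. In the KO pair the proliferation median was 0.22 as a mean over cells. With at least 3 UMIs of which 90% were of one class, lambda cells were 0.360, 1.04, 0 and 6.33%, and switched cells 1.08, 0.781, 4.05 and 1.27%. Most B cells met neither the lambda nor the kappa limit, and most met neither heavy-chain limit. The causes were not tested, apart from what each alternative leaves out by construction.

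No paired analysis was possible because each group is 1 library. Depth limits the KO libraries most, with 94 and 51 B cells of at least 1000 UMIs against 269 and 364 in the WT libraries.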

Other observations

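Xist, the transcript of the inactive X chromosome, had no UMI in the B cells of any library, while the Y-linked gene Ddx3y stood at 135, 129, 135 and 112 CPM. Gm42418 stood at 1956, 1308, 1314 and 247 CPM in the B cells, low in KO anti-PD-1 alone, and its ratio within the KO pair was -2.41 in B cells and -3.44 in Cd3 cells.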
